A study of Bos taurus with 4 samples.

Results

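The large subunit of the cytosolic ribosome was represented on the array by 51 genes, taken as every non-control probe whose gene name was RPL with a number, with an A, L, AL or L1 suffix where present, or RPLP0, RPLP1 or RPLP2. These genes carried 188 probes, out of 51282 probes with 32429 gene names on the whole array. RPL39L and RPL41 were not among the array's gene names. Each gene had between 1 and 8 probes, and 6 genes had 1 probe.

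Sperm RNA of Murrah buffalo breeding bulls was hybridised to a 1-colour bovine expression array of 60-base probes, so that buffalo RNA was read by cattle sequences throughout. The high-fertile group held 2 pools and the low-fertile group held 2 pools, each made from equal amounts of RNA of 2 bulls, with fertility rated by the conception rate after artificial insemination. No treatment was given, all samples were Percoll-selected sperm, and which bull entered which pool was not given in the sources used here. All 4 arrays lay on 1 slide, with 1 row of the slide for each fertility group, so row and group cannot be told apart. A level is given below as the log2 processed signal minus the 75th percentile of its array, and a difference is the mean of the low-fertile pools minus the mean of the high-fertile pools on that log2 scale. Fewer cells of a type and less RNA per cell cannot be told apart in such bulk samples.

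The large subunit joins amino acids into protein. Its ribosomal RNAs form the catalytic centre, and its proteins fold and brace that RNA, line the tunnel through which the new chain leaves, form the stalks that recruit translation factors, and carry the contacts with the small subunit. Mature sperm translate little in the cytosol, since most cytoplasm and most ribosomes are shed while the spermatid matures, and the ribosomal protein mRNAs found in sperm are usually regarded as remnants of spermatogenesis.

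The probes are the measurement, and 7 probes of genes that the results turn on are shown here, 5′ to 3′, with G and C in capitals because the differences varied with the GC content of the probe. Bases are counted from the start of the target transcript that the array's annotation names. Probes that reach the transcript's end are shown by their last 30 bases only. The first 3 belong to the genes with the widest falls, and the fourth is the start of a transcript whose last tested probe fell further. The next 2 rose in the low-fertile pools, whereas the last, near the start of RPL3, did not pass the test.
RPL39 from base 148: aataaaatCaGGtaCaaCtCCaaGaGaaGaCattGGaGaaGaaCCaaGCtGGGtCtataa
RPL39 from base 302, last 30 bases: tGaGaCCCaGCaataaatataaaaCGttGC
RPL5 from base 822: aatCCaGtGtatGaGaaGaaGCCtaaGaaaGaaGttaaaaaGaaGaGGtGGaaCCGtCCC
RPL7 from base 160: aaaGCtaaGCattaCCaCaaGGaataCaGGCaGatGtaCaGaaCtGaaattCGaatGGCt
RPL15 from base 180: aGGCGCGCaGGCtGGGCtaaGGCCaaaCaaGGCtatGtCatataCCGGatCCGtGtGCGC
RPL36 from base 333, last 30 bases: CtCtGttCaCaatCaCaataaatCttGCCC
RPL3 from base 144: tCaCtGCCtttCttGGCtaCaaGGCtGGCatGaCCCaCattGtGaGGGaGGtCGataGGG
The whole 60-base probes had a GC content of 38.3% and 40% for RPL39, 41.7% for RPL5 and 40% for RPL7, against 60% for RPL15, 51.7% for RPL36 and 55% for RPL3.

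Of the 51 genes, 47 had a probe that the scanner software marked as well above background in both pools of a group, and these were tested. At its brightest tested probe, 26 genes were lower in the low-fertile pools, 1 gene was higher and 20 did not pass (adjusted p under 0.05, limma with Benjamini-Hochberg adjustment over all 21033 probes tested). Over all 16685 genes tested in the same way, 16.6% were called lower and 9.53% were called higher. Among genes whose brightest probe was well above background on all 4 arrays, 25 of 43 were lower and 1 was higher, beside 9.32% and 13.2% of all such genes. The median difference of the 47 genes was -0.68, beside 0.01 for all tested genes. The median level of the 47 genes was 2.67 and 2.42 in the high-fertile pools against 1.82 and 1.94 in the low-fertile pools, and the groups did not overlap. The count of lower genes was 11 or 14 when high-fertile pool 1 or 2 was left out and 21 or 22 when low-fertile pool 1 or 2 was (such a fit takes the spread of a group left with 1 pool from the other group), and it was 18 after a correction for probe GC content. The genes called lower with all pools and also without each pool in turn numbered 10, namely RPL5, RPL7, RPL11, RPL15, RPL23, RPL26L1, RPL27A, RPL32, RPL36A and RPL39. Of these RPL26L1 was not well above background in either low-fertile pool, and RPL11 and RPL26L1 were no longer called after the GC correction. Without any filter on dim probes no probe of the array passed in limma, although 27 of the 51 genes were lower and 2 higher at an unadjusted p under 0.05, beside 10.4% and 8.13% of all 32429 genes.

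**Figure D1:**
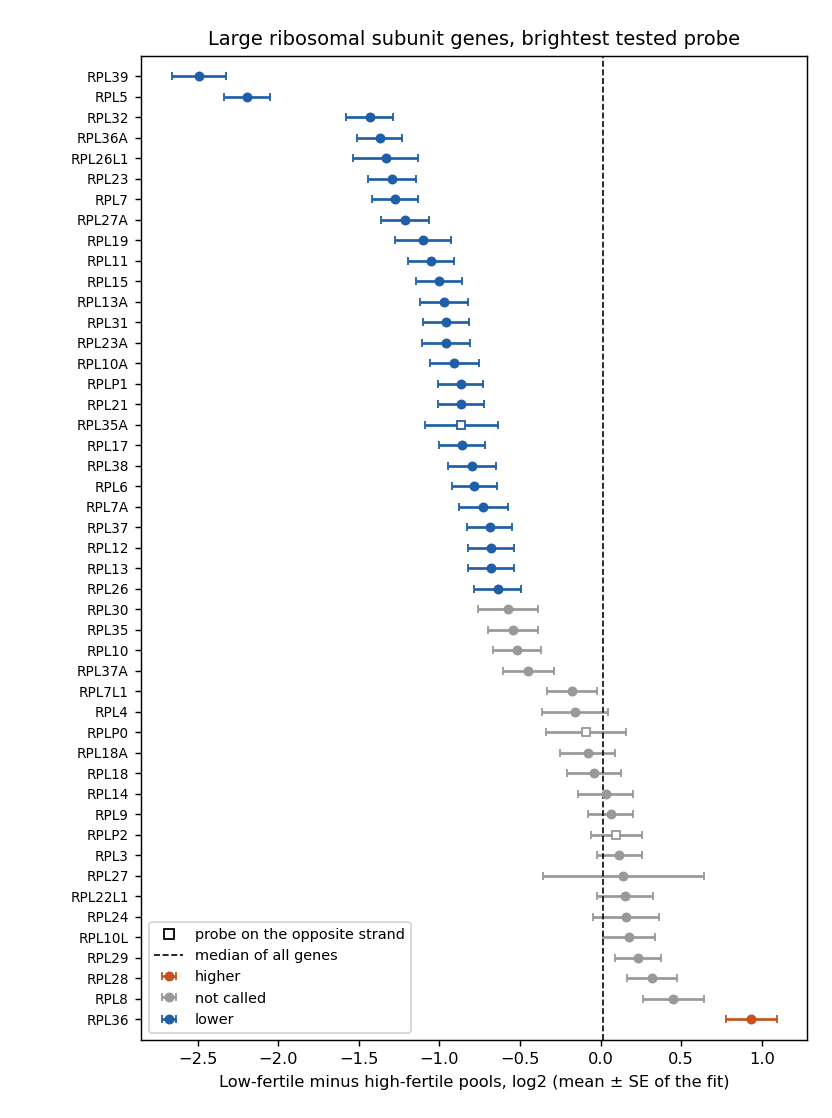
Difference between low-fertile and high-fertile pools on the log2 scale for the brightest tested probe of 47 large subunit genes, with the standard error (SE) of the fit. Blue points were called lower, the orange point higher and grey points not called; open squares are probes on the strand opposite to the gene's RefSeq probes, and RPL39 and RPL5 lie apart at the low end.

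By probe, 149 of the 188 were tested, 78 were lower, 3 were higher and 68 did not pass. Over all probes tested, 17.6% were called lower and 9.22% were called higher. Of the 149, 26 had entered through the high-fertile pair alone, where a difference towards the high-fertile pools was built into the filter. Another 2 had entered through the low-fertile pair alone. Of all 21033 tested probes, 8145 and 336 had entered in these ways. Among the 121 large subunit probes well above background on all 4 arrays, 64 were lower and 3 higher, beside 9.89% lower and 13.2% higher over all such probes. The low-fertile pair lay wholly below the high-fertile pair at 109 probes and wholly above it at 10, against 35.5% and 33.6% of all tested probes. In 9 genes the brightest probe did not pass while another probe of the gene was called lower, and in 5 of them (RPL9, RPL10, RPL14, RPL30 and RPLP2) such a probe was well above background on all 4 arrays. Of the 26 genes lower at their brightest probe, 14 had every tested probe called lower, those with 1 tested probe included. The others had probes that did not pass, as in RPL13 (1 of 5 called), RPL6 (2 of 8) and RPL7A (the other at 0.30). At least 1 probe was called lower in 35 of 47 tested genes, beside 19.2% of all genes, and with probes above background on all 4 arrays in 30 of 43, beside 10%. Of the 37 large subunit genes with 2 or more tested probes 10 had all of them called lower, beside 7.03% of all such genes, and with probes above background on all 4 arrays it was 10 of 31, beside 5.24%. These shares are not like for like, since large subunit genes had a mean of 3.17 tested probes each and all genes 1.26. The median distance between the pools of a group was 0.13 for the high-fertile and 0.14 for the low-fertile pair.

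RPL39, a very small protein that lines the exit tunnel, was named by the study among its genes of interest. Its probe at base 302, in an unplaced contig of the Btau_3.1 assembly, had levels of 3.67 and 3.92 in the high-fertile pools against 1.39 and 1.21 in the low-fertile pools, a difference of -2.49 (SE 0.17, adjusted p = 0.0022, limma). The other probes of RPL39 were lower as well. At base 148 the levels were 3.22 and 3.10 against 1.68 and 1.71, and at base 738 of a longer cDNA they were 3.20 and 3.21 against 1.24 and 1.55. The falls were 5.63-fold, 2.76-fold and 3.50-fold, so that the size of the RPL39 difference varied with the probe while its direction did not. At the first of these probes the difference was -1.78 with the normexp background correction, and it still passed.

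RPL5 and RPL11 carry the 5S ribosomal RNA into the nascent subunit, and outside the ribosome the same particle binds MDM2 and restrains it. Both genes were lower. RPL5 at base 921, on chromosome 3, had levels of 4.53 and 4.51 in the high-fertile pools against 2.28 and 2.37 in the low-fertile pools, a 4.57-fold fall (difference -2.19, SE 0.14, adjusted p = 0.0022, limma). All 4 tested probes of RPL5, of which those at bases 822, 839 and 854 overlap, were lower, with differences between -2.19 and -1.76, and the one at base 822 had entered through the high-fertile pair alone. The fifth probe, at base 750, was not well above background on enough arrays to be tested. RPL11, read by 1 probe at base 535, had levels of 2.79 and 2.92 against 1.79 and 1.81, a difference of -1.05 (SE 0.14, adjusted p = 0.0066, limma). After the GC correction the RPL11 difference was -0.31 and did not pass (adjusted p = 0.22, limma).

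The proteins at the peptide exit tunnel and its rim, where chaperones and the signal recognition particle dock, were RPL4, RPL17, RPL19, RPL23A, RPL26, RPL31, RPL35 and RPL39. Of these 8 genes 6 were lower, beside 16.6% of all genes, none was higher, and the median difference was -0.91. All 8 were read above background on all 4 arrays, where 9.32% of all genes were lower and 13.2% higher. After the GC correction RPL17 (-0.57) and RPL26 (-0.46) no longer passed. RPL19 had levels of 1.40 and 1.74 in the high-fertile pools against 0.44 and 0.50 in the low-fertile pools (difference -1.10, SE 0.17, adjusted p = 0.0097, limma), a call lost without high-fertile pool 2 (adjusted p = 0.050). RPL26 at the rim had levels of 3.22 and 3.18 against 2.49 and 2.63 (difference -0.64, SE 0.15, adjusted p = 0.029, limma), and this call was lost whichever pool was left out. RPL35 (-0.55) and RPL4 (-0.16) did not pass at their brightest probe. The other tested probes of RPL4 were called lower at -1.07 and -0.99, but both had entered through the high-fertile pair alone, and the brightest was the only RPL4 probe well above background on all 4 arrays.

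The stalk of RPLP0, RPLP1, RPLP2 and RPL12 recruits and activates the elongation factor GTPases. RPLP1 had levels of 3.90 and 3.96 in the high-fertile pools against 3.04 and 3.08 in the low-fertile pools, a difference of -0.87 (SE 0.14, adjusted p = 0.010, limma), and all 3 of its probes were lower. Without high-fertile pool 1 or 2 its adjusted p was 0.051 or 0.061, and after the GC correction the RPLP1 difference was -0.13 (adjusted p = 0.60, limma). RPL12, which sits on the ribosomal RNA at the stalk base, had levels of 3.48 and 3.42 against 2.81 and 2.72 and was lower (difference -0.68, adjusted p = 0.022, limma). Of its other RefSeq probes the one at base 536 was lower (-1.19), while those at bases 347, 350 and 413 (-0.34, -0.48 and -0.39) did not pass, all of them above background on all 4 arrays. RPLP2 was read on both strands, and the difference between them was not tested. Its brightest probe, at base 421 of an expressed sequence tag, had levels of 5.73 and 5.52 against 5.66 and 5.78, with overlapping groups, and lay on the strand opposite to the 4 RefSeq probes of RPLP2. Those 4 probes had differences of -0.56, -0.28, -0.24 and -0.76, and the last, at base 398, passed (adjusted p = 0.017, limma). For RPLP0 the single tested probe was also on the opposite strand (levels 0.18 and 0.45 against 0.54 and -0.09), and the other 5 RPLP0 probes were well above background on at most 1 array. RPL10A, the protein of the L1 stalk that guides the spent transfer RNA out, was lower by 0.91 on the log2 scale. All 3 of its probes were called lower, 1 of which, at base 263, had entered through the high-fertile pair alone. The RPL10A call was not among those kept whichever pool was left out, and after the GC correction the difference was -0.62 and did not pass (adjusted p = 0.054, limma).

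In all, 9 probes of 9 genes had coordinates on the strand opposite to the RefSeq probes of their gene, 7 of them were tested, and 3 genes (RPLP0, RPLP2 and RPL35A) were represented by such a probe. Labelled cRNA from this protocol is antisense to mRNA, so a probe on the opposite strand does not read the gene's own mRNA unless its annotated strand is wrong. RPL10 shows both strands at one place, on the X chromosome. The probes below share 49 bases, in capitals, one being the reverse complement of the other over that stretch.
RPL10 from base 242, RefSeq strand: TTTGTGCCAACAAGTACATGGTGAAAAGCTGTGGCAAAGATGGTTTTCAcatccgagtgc
RPL10 from base 401 of a cDNA, opposite strand: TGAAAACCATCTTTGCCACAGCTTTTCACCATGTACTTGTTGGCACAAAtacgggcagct
The RefSeq-strand probe had levels of 1.98 and 2.04 in the high-fertile pools against 1.14 and 1.03 in the low-fertile pools (difference -0.93, adjusted p = 0.0090, limma). Its complement had levels of 2.46 and 2.68 against 2.30 and 2.62, with overlapping groups (difference -0.11, adjusted p = 0.67, limma). Both probes had a GC content of 45%, and the difference between the strands was not tested. RPL35A, named here after its values were seen, had differences of -0.86 at the opposite-strand probe and between -1.66 and -0.55 at its 4 tested RefSeq probes, of which those at bases 234 and 363 had entered through the high-fertile pair alone. Its call at the opposite-strand probe was lost without high-fertile pool 1 (adjusted p = 0.14, limma) and without low-fertile pool 1 or 2 (0.11 and 0.096), and also with normexp (-0.45, adjusted p = 0.059), with quantile normalisation (0.054) and with the percentile taken over probes above background on all arrays (0.066). The remaining opposite-strand probes had differences of -0.07 for RPL12 and 0.20 for RPL27, neither of which passed, and that of RPL31 was not well above background in the low-fertile pools and was at least 3.71-fold lower (adjusted p = 0.010, limma), having entered through the high-fertile pair alone. With the opposite-strand probes left out, 26 of 46 genes were lower and the median was -0.68.

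At the subunit interface, RPL23 had levels of 3.61 and 3.72 in the high-fertile pools against 2.31 and 2.45 in the low-fertile pools (difference -1.29, SE 0.15, adjusted p = 0.0042, limma). RPL10, whose late loading completes the subunit, had levels of 4.66 and 4.71 against 4.08 and 4.26 at its brightest probe, and this difference of -0.52 did not pass (SE 0.15, adjusted p = 0.055, limma), although the groups did not overlap. RPL24, which reaches across to the small subunit, did not pass at 0.16.

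Other members of the main body gave the remaining wide falls. RPL32 had levels of 1.83 and 1.73 in the high-fertile pools against 0.41 and 0.29 in the low-fertile pools, a 2.70-fold fall (difference -1.43, SE 0.15, adjusted p = 0.0034, limma). RPL36A had levels of 3.50 and 3.54 against 2.13 and 2.16, a 2.58-fold fall (difference -1.37, SE 0.14, adjusted p = 0.0034, limma). RPL7 had levels of 4.81 and 4.87 against 3.51 and 3.62, a 2.42-fold fall (difference -1.27, SE 0.14, adjusted p = 0.0041, limma). RPL27A had levels of 4.58 and 4.51 against 3.24 and 3.42, a 2.32-fold fall (difference -1.21, SE 0.15, adjusted p = 0.0050, limma), and all 3 of its probes were lower. In each of these genes the groups did not overlap. After the GC correction the fall was 1.64-fold for RPL32 and 1.55-fold for RPL36A, and with normexp the RPL32 difference was -0.72, all of which still passed. Over the whole set, 11 genes were called lower by more than 2-fold, beside 10.4% of all genes, and with the brightest probe above background on all 4 arrays, which leaves out RPL26L1, it was 10 of 43, beside 3.99%. Among the 25 tested genes outside the named role groups, 13 were lower and 1 was higher, and all 25 were read above background on all 4 arrays, where 9.32% of all genes were lower and 13.2% higher.

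**Figure D2:**
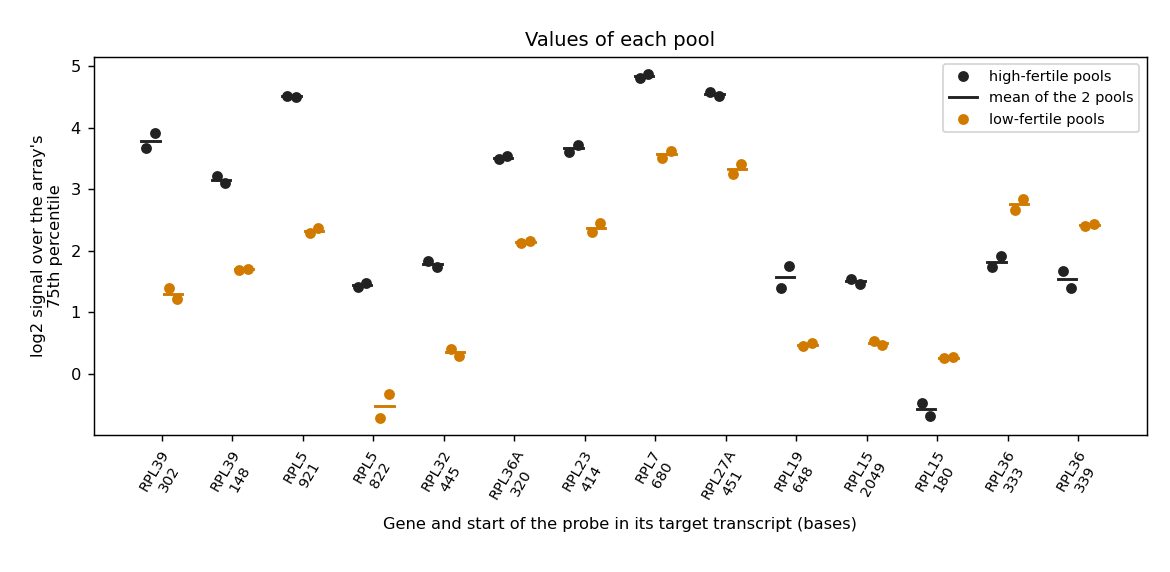
Level of each pool (log2 signal over the 75th percentile of its array) at 14 probes, named by gene and start base, with a short line at the mean of the 2 pools of a group. The low-fertile pools lie below the high-fertile pools at the first 11 probes and above them at the RPL15 probe at base 180 and both RPL36 probes; levels of different probes are not comparable, and the RPL5 probe at base 822 was not well above background in low-fertile pool 2.

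RPL36 was the only gene called higher at its brightest probe. At base 333 it had levels of 1.73 and 1.91 in the high-fertile pools against 2.67 and 2.85 in the low-fertile pools, a 1.91-fold rise (difference 0.93, SE 0.16, adjusted p = 0.012, limma). A second RPL36 probe, at base 339 and so sharing most of its bases with the first, had levels of 1.67 and 1.39 against 2.40 and 2.44 (difference 0.89, adjusted p = 0.015, limma). The array's annotation placed the first on chromosome 7 and the second on chromosome 5. The RPL36 call was lost without high-fertile pool 1 (adjusted p = 0.066).

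RPL15 was the only gene with probes called in both directions. Near its start, at base 180, the levels were -0.48 and -0.69 in the high-fertile pools against 0.26 and 0.26 in the low-fertile pools, a 1.79-fold rise (difference 0.84, SE 0.15, adjusted p = 0.014, limma). At base 2049, the brightest probe, they were 1.55 and 1.45 against 0.53 and 0.46, a 2.01-fold fall (SE 0.14, adjusted p = 0.0073, limma). With each pool's level taken as the median over all tested RPL15 probes, the difference was -0.36 and did not pass (adjusted p = 0.13, limma). The median of the differences of those probes was -0.81. The probes at bases 180 and 2049 were the only RPL15 probes well above background on all 4 arrays. The probe at base 457 had entered through the low-fertile pair alone and did not pass (0.31). Those at bases 1724, 1731 and 2020 had entered through the high-fertile pair alone, where a fall was built into the filter, and were called lower; the first and the last of them, not well above background in either low-fertile pool, were at least 3.58-fold and 1.91-fold lower. All 6 lay on chromosome 27, within 1 annotated transcript.

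Some paralogs replace their parent protein in particular tissues, and here each tested paralog except RPL22L1 was well above background on 2 or 3 arrays only. RPL26L1, with 1 probe, had levels of 0.21 and -0.22 in the high-fertile pools against -1.23 and -1.45 in the low-fertile pools, where it was not well above background on either array, so that it was at least 2.52-fold lower on this scale (adjusted p = 0.0083, limma). It had entered through the high-fertile pair alone, and its difference was -0.36 with normexp and -0.61 after the GC correction, where it did not pass (adjusted p = 0.10, limma). RPL10L, a testis paralog of RPL10 that is used in male meiosis, had levels of -0.48 and -0.46 against -0.43 and -0.15 and did not pass (difference 0.18, adjusted p = 0.45, limma). RPL7L1 had levels of -0.06 and 0.08 against -0.08 and -0.25 (difference -0.18, adjusted p = 0.43, limma). The brightest probe of RPL22L1, at base 739, had levels of 2.17 and 1.96 against 2.09 and 2.35, with overlapping groups. At base 336 the levels were 0.77 and 0.67 against -0.75 and -0.81, and this probe was called lower (adjusted p = 0.0030, limma), but it was not well above background in low-fertile pool 2 and had entered through the high-fertile pair alone. The third tested probe, at base 1012, was above background on all 4 arrays and did not pass at -0.46. RPL3L, the muscle paralog of RPL3, and RPL36AL, the paralog of RPL36A, were not tested, since no RPL36AL probe was well above background on any array and RPL3L was so on 1 array at 1 probe. RPL22 and RPL34 completed the untested members, with no array for RPL22 and 1 array at 1 probe for RPL34.

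Among the parents, RPL3, which shapes the entrance to the catalytic centre, had 1 probe well above background on all 4 arrays. At that probe, base 144, its levels were 0.53 and 0.48 in the high-fertile pools against 0.59 and 0.66 in the low-fertile pools, and it did not pass (difference 0.12, adjusted p = 0.57, limma). At base 1182 they were 0.53 and 0.48 against -0.35 and -0.77, a difference of -1.06 that passed (adjusted p = 0.013, limma). Its remaining tested probes, at bases 645, 1217 and 1220, had differences between -0.79 and -0.43 that did not pass. All but the probe at base 144 had entered through the high-fertile pair alone.

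Such a change along the transcript was examined for every target with 2 tested probes at least 100 bases apart, by setting the last probe against the first. Among 24 large subunit targets the later probe had the lower difference in 18, with a median change of -0.37, beside 57.9% of 2555 other targets and a median of -0.14. With probes well above background on all 4 arrays it was 15 of 16, with a median of -0.65, beside 58.7% of 1096. RPL7 went from -0.69 at base 160 to -1.38 at base 716, RPL17 from -0.34 at base 191 to -1.04 at base 551, and RPL13A from -0.04 at base 160 to -0.97 at base 603. The array's annotation placed these RPL17 probes on chromosomes 24 and 19, and the first and last RPL12 probes on chromosomes 11 and 10. The opposite was seen in RPL10, RPL22L1, RPL29, RPL35, RPL4 and RPL10A. In RPL37 the first probe, at base 168, rested on low-fertile pool 1 (2.20, against 0.61 in pool 2). The later probe also had the lower GC content in 19 of the 24, with a median change of -5.83 percentage points. After the GC correction the later probe was lower in 12 of 24, with a median change of 0.043, and in 9 of 16, with a median of -0.34, beside medians of -0.012 and -0.0082 for the other targets. Probe position and GC content moved together here, and their parts in the result were not tested.

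**Figure D3:**
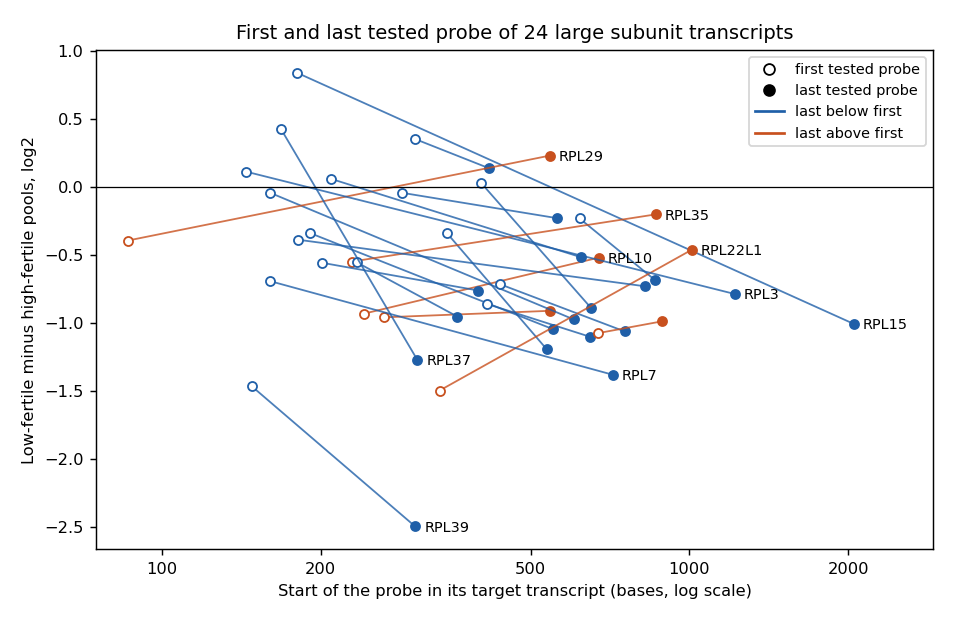
Difference between low-fertile and high-fertile pools (log2) at the first tested probe (open) and the last tested probe (filled) of 24 large subunit transcripts, against the probe's start in the transcript in bases on a log scale. Blue lines join pairs in which the last probe was lower (18) and orange lines those in which it was higher (6).

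Across the 149 tested large subunit probes, GC content and difference had a Pearson's r of 0.44 and a Spearman's rho of 0.49, and across the 47 genes at their brightest probe r was 0.53 and rho 0.64. The probes share arrays, and many share a transcript or bases, so these describe the set only. Over all 21033 tested probes r was 0.44 and rho 0.48. Large subunit probes below 40% GC had a median difference of -0.88 (36 probes), against -0.74 for all tested probes of that range and -0.27 for those well above background on all 4 arrays. Between 40 and 50% GC the median of 102 large subunit probes was -0.64, against -0.15 and 0.02. Between 50 and 60% the median of 10 was 0.15, against 0.20 and 0.25. The median GC content of the tested large subunit probes was 43.3%, and that of all tested probes was 45%. With GC content fitted out on each array, the median over the 47 genes was -0.48. The correction took out the median of all tested probes of the same GC content. Of all 21033, 8145 had entered through the high-fertile pair alone, so the fall built into the filter was part of the correction. RPL39 (-2.49 before the correction), RPL5, RPL32, RPL36A, RPL23, RPL7, RPL27A, RPL19, RPL15 and RPL36 still passed. The 8 calls lost were those of RPL10A, RPL11, RPL13A, RPL17, RPL26, RPL26L1, RPL35A and RPLP1.

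**Figure D4:**
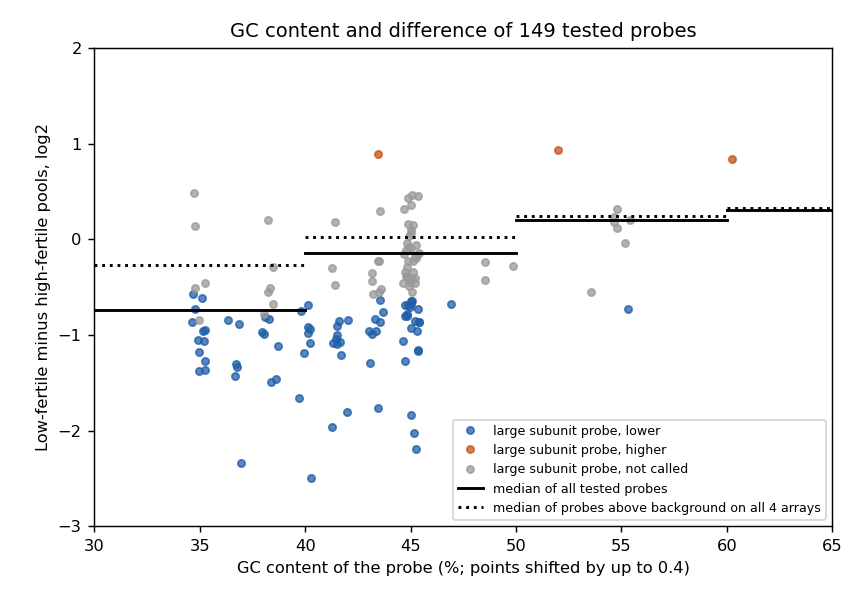
Difference between low-fertile and high-fertile pools (log2) of each of the 149 tested large subunit probes against the GC content of the probe in percent. Black lines are the medians of all tested probes (solid) and of probes well above background on all 4 arrays (dotted) in each GC range; most large subunit probes between 40 and 50% GC lie below both lines, and those above 50% lie around them.

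The other ribosomal genes were read in the same way. The small subunit list had 19 of 32 tested genes lower and 1 higher, RPS9, with a median of -0.68, near that of the large subunit. With the brightest probe above background on all 4 arrays 19 of 30 were lower and none was higher, since RPS9 was not. RPS3A (-1.82), RPS6 (-1.45) and RPS27A (-1.42) were its widest falls. The large subunit of the mitochondrial ribosome, which is built by other genes, had 6 of 27 tested genes lower (22.2%, beside 16.6% of all genes) and 2 higher, with a median of -0.07. Of these 6, 4 were well above background on 3 arrays only. With the brightest probe above background on all 4 arrays 2 of 18 were lower and 2 higher, beside 9.32% and 13.2% of all such genes. The median of the 18 was 0.07. Of the 50 assembly factors that build the cytosolic large subunit in the nucleolus, 19 were tested and 31 were not. Of the 19, 3 were lower (NSA2, GNL3 and RPF1) and 2 higher (SENP3 and MRTO4), beside 16.6% and 9.53% of all genes. The median of the 19 was 0.16. Each of the 3 lower assembly factors was not well above background in either low-fertile pool.

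**Figure D5:**
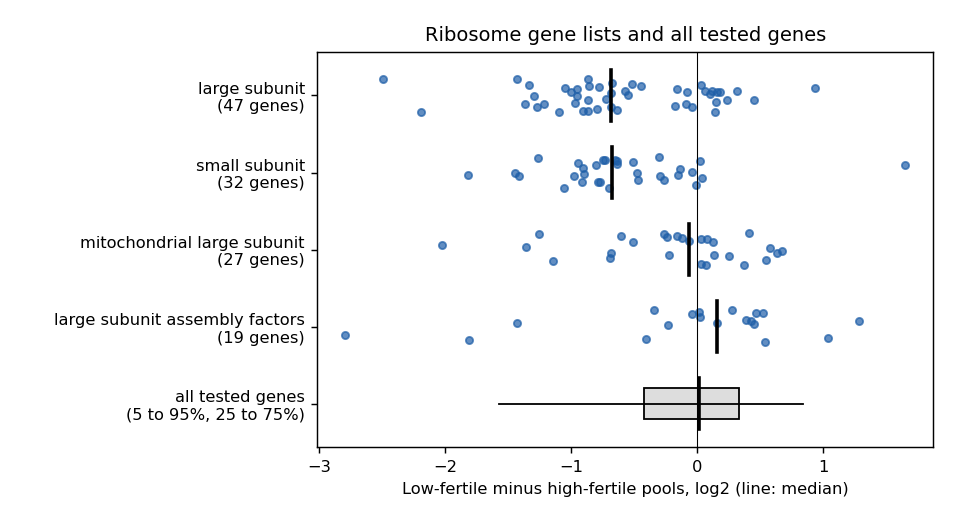
Difference between low-fertile and high-fertile pools (log2) of each tested gene in 4 lists, with the median as a vertical line, and the spread of all tested genes as a box (25 to 75%) with a line from 5 to 95%. The medians are -0.68 for both cytosolic subunits, -0.07 for the mitochondrial large subunit, 0.16 for the assembly factors and 0.01 for all tested genes.

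Some values of the arrays as a whole stood beside these results. The 75th percentile of the processed signal was between 32.7 and 37.1, and between 13033 (low-fertile pool 2) and 25642 (low-fertile pool 1) probes were well above background. Of 18 sperm and spermatid markers 8 were tested and 6 were well above background on all 4 arrays. The protamine PRM1 was higher in the low-fertile pools (difference 0.67, adjusted p = 0.023, limma), and the other 7 tested sperm markers did not pass. Of the 8 tested, 4 were below 0 and 4 above, with a median difference of -0.0061. Summed over the sperm list, signals were 1659 and 1530 in the high-fertile pools against 1634 and 1329 in the low-fertile pools. AKAP4, SMCP and LDHC were not well above background on any array. Of 12 leukocyte markers 9 were tested and 1, PTPRC, was higher (0.78), with the list's summed signal 8011 and 8207 in the high-fertile pools against 12477 and 12357 in the low-fertile pools, most of it PTPRC. Without PTPRC the sums were 1030.3 and 1081 against 973.4 and 969.1, the median difference of the 9 tested markers was -0.04, and 5 of them were below 0, with SRGN and CD3E not above background. Of 8 epithelial markers 6 were tested and CLDN7 was higher (0.80), with sums of 1178 to 1280 and 1281 to 1308 and EPCAM and CDH1 not above background. Of 7 red cell markers 3 were tested and HBB was higher (1.24), with sums of 324.0 to 485.1 and 412.3 to 422.0. No marker was called lower, and the part of other cells in the ribosomal result was not tested.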

How the data were processed

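Sperm RNA was measured on 4 one-colour Cy3 arrays, labelled from an oligo-dT primer. The deposited scanner files hold linear intensity values, background-subtracted by the authors with Feature Extraction 11.5.1.1, and the deposited value table holds log2 values that the authors shifted by the 75th percentile in GeneSpring GX 12.6. Here log2 processed signals were recomputed: spots marked as outliers were dropped, each probe's remaining spots were averaged, and every array was shifted by its 75th percentile, controls excluded. The 21033 probes marked as well above background in both pools of a group entered a limma fit (version 3.58.1, R 4.3.3) without a block, with adjustment over all of them, and the prior had 3.52 degrees of freedom. Python 3.11.15 was used otherwise, and the fit was tested on simulated data. The brightest tested probe stood for its gene.

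The pool was the replicate, and with 2 pools a group the precision rests on the number of arrays. The p-values measure only the spread between pools. For each probe limma drew that spread partly from the probe's own pools and partly, through the prior, from all tested probes. The members and lists were chosen with earlier results of these data known. Values in every array are given for RPL39, RPLP0, RPLP1, RPLP2, the tested paralogs with their tested parents, the 8 widest falls and rises among calls whose brightest probe was above background in every pool, and genes with probes called in both directions. Coordinates are those of the array's annotation (Btau_3.1), which does not give coding boundaries. All 51 gene names matched RefSeq symbols of the ARS-UCD2.0 table. Of 67 overlapping probe pairs, 66 matched best within 3 bases of their annotated offset. Probes sharing 25 bases with a probe of another name numbered 17, in 10 genes, so signals of near-identical copies may be mixed there. The alternatives concerned scaling, background, filter, outlier spots, bright patches, probe choice, strand, GC content, pool number as a block and each pool left out. Only the strand alternative was chosen after seeing the data.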

Additional observations from a re-analysis of the deposited data

How the results depend on the processing

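The direction of the median over the large subunit genes held under all 20 alternatives. It was -1.05 with spike-in scaling, which moved the median of all tested probes to -0.38 and the share of called probes that were lower from 65.6% to 92.1%; relative to all probes the large subunit median was -0.68 there. It was -0.53 with each pool's level taken as the median over all tested probes of a gene, and -0.48 with the GC correction. The small subunit median was -0.53 with normexp, -1.05 with spike-ins and -0.45 with the GC correction. The mitochondrial median was -0.44 with spike-ins and 0.093 without a filter, and its count of lower genes was 10 with spike-ins and 2 with the filter on all 4 arrays, where 37.5% of called probes were lower. Without a filter, and with the methods' t-test after Benjamini-Hochberg, 0 probes of the array were called, and so 0 lower and 0 higher large subunit genes, 0 small subunit and 0 mitochondrial genes; at an unadjusted p under 0.05 these called 9278 of 51282 and 6084 of 21033 probes, and 27 lower and 2 higher large subunit genes in both. Leaving out 1 pool in turn gave 2640 to 4989 called probes, 11 to 22 lower and 0 to 1 higher large subunit genes, 4 to 15 small subunit and 3 to 5 mitochondrial genes lower.

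Pool numbers did not pair the samples (r = 0.0055 between the groups' pool differences over 21024 probes). With the number as a replicate block, 26 large subunit genes were again lower.

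Among the genes followed one by one under the alternatives, the signs that turned were of genes that had not passed. RPLP0 was 0.052 with normexp and ranged from -0.41 to 0.23 with 1 pool left out. RPL7L1 was 0.030 with normexp. RPL3 was -0.012 with normexp, -0.26 with spike-ins, -1.06 with the median level over its probes in each pool and -0.15 with the GC correction. The median of the differences of the tested RPL3 probes was -0.68. RPLP2 ranged from -0.0092 to 0.20 with 1 pool left out and was -0.27 with spike-ins, -0.31 with the median over its probes and -0.28 without opposite-strand probes. RPL10L was -0.19 with spike-ins and -0.085 with the GC correction. RPL22L1 was -0.22 with spike-ins and -0.46 with the median over its probes. RPL10 passed under 5 of the alternatives. The causes were not tested. Signal over background limits RPL7L1, RPL10L, RPL26L1, RPL3L, RPL36AL, RPLP0, RPL22 and RPL34.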

Other observations

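One tested probe each of RPL12, RPL21 and RPL27 lay on a bright patch of an array. At that RPL27 probe low-fertile pool 1 was 2.91 and pool 2 was 1.36, beside 1.82 and 2.17 in the high-fertile pools. RPL27 did not pass there, nor at its RefSeq probe at base 302 (0.35), both above background on all 4 arrays. Its probe at base 391 was called lower (-1.17, adjusted p = 0.0069, limma) but had entered through the high-fertile pair alone.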
